A study of Mus musculus with 4 samples.

Results

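Pomc encodes the precursor of several pituitary peptide hormones, and its transcripts were followed here together with those of 6 genes that act on the precursor or on the enzymes that cut it: Pcsk1, Pcsk2, Pcsk1n, Scg5, Cpe and Pam. These 7 genes, of 31053 features in the deposited tables, were chosen by name and measured as unique molecular identifiers (UMIs, tags that mark single captured RNA molecules). Single cells came from pituitaries of mice with transgenic overexpression of p25 (p25OE) at 14 weeks, of their wild-type (WT) littermates at 14 weeks, and of both genotypes again at 40 weeks. p25 is a truncated activator of the kinase Cdk5, and the design text names the WT animals as controls. Each of the 4 groups was 1 library, all given the strain C57BL/6- B6;CBA-BiTg by the labels. The promoter and cell type that drive p25, and the number of glands pooled in a library, are not given in the sources used here. Because each group was a single library, the spread between animals was not measured and no test was run. The 95% intervals in parentheses cover counting error only.

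Pomc protein is cut by prohormone convertases inside secretory granules. In corticotrophs of the anterior lobe, convertase PC1/3 (Pcsk1) releases the stress hormone ACTH. In melanotrophs of the intermediate lobe, PC2 (Pcsk2) cuts further and gives the precursor of alpha-MSH, a pigment-stimulating peptide, and beta-endorphin. Pcsk1n (proSAAS) yields inhibitor peptides of PC1/3, Scg5 (7B2) is the chaperone and inhibitor of PC2, carboxypeptidase E (Cpe) trims the basic residues left by the cuts, and Pam amidates peptide ends.

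Cells were kept with at least 500 detected genes and at most 20% mitochondrial UMIs. A kept cell was melanotroph-gated when it held Pcsk2 with Pax7 or Oacyl, both marks of the intermediate lobe. It was corticotroph-gated when it held Tbx19, a transcription factor of the Pomc lineages, or Crhr1, the receptor of the hypothalamic hormone CRH, and neither Pax7 nor Oacyl. At 14 weeks the melanotroph gate took in 1962 of 7667 kept p25OE cells (25.6%) and 630 of 6579 kept WT cells (9.58%). At 40 weeks it took in 6438 of 7726 kept p25OE cells (83.3%) and 902 of 7927 kept WT cells (11.4%). The corticotroph gate took in 749 p25OE and 855 WT cells at 14 weeks, and 104 p25OE and 603 WT cells at 40 weeks. Pcsk2 is part of the first gate, so its presence there was set by the rule. Melanotroph-gated cells had median depths of 9368 UMIs in p25OE and 18457 in WT at 14 weeks, and of 7358 in p25OE and 8022 in WT at 40 weeks, and the part of depth in the differences was not tested.

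The libraries held 53714895 to 95242353 UMIs, and kept cells had medians of 4940 to 10778 UMIs. Libraries of the same age shared 13 kept barcodes at 14 weeks and 85 at 40 weeks, and pairs of different ages at most 2. At 40 weeks the WT melanotroph gate and the p25OE corticotroph gate went against their names. Gh and Prl, the hormones of other cells, took 0.647% of the UMIs of the melanotroph gate in p25OE and 20% in WT. Under 2% Pomc were 13% of its p25OE cells and 28.9% of its WT cells. A stricter gate, Pcsk2 with at least 3 UMIs of Pax7 and Oacyl together, was therefore added after the data were seen. This stricter gate held 1594 p25OE and 561 WT cells at 14 weeks and 4552 p25OE and 390 WT cells at 40 weeks, and Gh with Prl took 0.251% of its UMIs in p25OE and 6.22% in WT at 40 weeks. The p25OE corticotroph gate at 40 weeks held Pcsk2 in 86.5% of its cells and Crhr1 in 3 of 104, while Avpr1b, the corticotroph vasopressin receptor, had 0 UMIs, which allows up to 5.45 CPM. It is called the Tbx19-or-Crhr1 gate for that library, and no statement on corticotrophs is drawn from it. The WT corticotroph gate at 40 weeks was mixed too, with 21.4% of its UMIs from Gh and Prl, Pcsk2 in 32.8% of its cells, and 30.8% of its cells under 2% Pomc. At 14 weeks Gh and Prl took 13.4% of the UMIs of the corticotroph gate in p25OE and 18.4% in WT, and under 2% Pomc were 24.8% of its p25OE cells and 40.5% of its WT cells.

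RNA set free from broken cells reaches every droplet, and kept cells outside both gates with at least 5 of 10 immune markers, which do not make Pomc, were used to read its level. In them Pomc took a median of 0.185% of UMIs in p25OE and 0.13% in WT at 14 weeks, and 1.49% in p25OE and 1.75% in WT at 40 weeks. These medians were higher at 40 weeks than at 14 weeks in both genotypes. Gh and Prl made up 23.2% of this set's UMIs for WT at 40 weeks, against 0.466% for p25OE of that age. At 14 weeks their share was 5.97% (p25OE) and 8.46% (WT). Immune markers made up 1.26% of UMIs for WT at 40 weeks, and 2.3% to 2.77% for the other libraries. Whether other cells or free RNA gave the Gh and Prl was not tested. A level read from the WT set at 40 weeks may thus not be free RNA alone.

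The stretches before the transcription starts of the hormone gene and of its 2 convertases are shown because these 3 genes separated the gates most at 14 weeks. They are from RefSeq on GRCm38.p6, plus strand, and end at the base before the start: Pomc at chr12:3954695-3954944, Pcsk1 at chr13:75089607-75089825, which stops where the GENCODE gene model begins, and Pcsk2 at chr2:143545883-143546132. Capitals mark matches, on either strand, to 5 motifs. They are the TATA box, searched as TATAAA, and the E-box, searched as CANNTG. The others are the Pitx site (TAATCC), the cyclic AMP response element (searched as TGACGTCA) and the GC box, searched as GGGCGG.
Pomc: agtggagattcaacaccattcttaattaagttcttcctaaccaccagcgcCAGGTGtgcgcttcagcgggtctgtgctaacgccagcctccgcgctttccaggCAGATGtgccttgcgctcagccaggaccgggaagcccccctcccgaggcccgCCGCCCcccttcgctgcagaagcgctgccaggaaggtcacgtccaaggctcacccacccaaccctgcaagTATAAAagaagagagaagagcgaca
Pcsk1: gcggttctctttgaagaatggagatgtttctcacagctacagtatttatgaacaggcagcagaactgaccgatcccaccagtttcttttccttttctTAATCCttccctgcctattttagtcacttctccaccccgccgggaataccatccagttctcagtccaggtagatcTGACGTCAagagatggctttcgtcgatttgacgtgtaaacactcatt
Pcsk2: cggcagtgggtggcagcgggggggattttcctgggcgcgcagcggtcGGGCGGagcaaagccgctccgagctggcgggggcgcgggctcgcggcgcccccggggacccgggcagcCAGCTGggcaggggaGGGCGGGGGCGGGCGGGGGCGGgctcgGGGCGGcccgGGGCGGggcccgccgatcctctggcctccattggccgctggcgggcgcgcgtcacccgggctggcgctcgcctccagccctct
Pomc held 1 TATA box that began 25 bases before the start, 2 E-boxes and 1 GC box. Pcsk1 held 1 cyclic AMP response element and 1 Pitx site. Pcsk2 held 7 GC boxes, some of them overlapping, 1 E-box and no TATAAA. Over the 250 bases before the start of 32851 promoters, TATAAA occurred in 12.4%, CANNTG in 66.2%, TAATCC in 6.25%, TGACGTCA in 1.55% and GGGCGG in 32.7%. A match is a run of letters and says nothing on binding in these cells.

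Pomc, on chromosome 12 from 3954951 to 3960642 in GRCm38, was the most abundant of the 7 transcripts in melanotroph-gated cells and was lower in p25OE. Its median share of a cell's UMIs was 12.4% in p25OE and 20% in WT at 14 weeks. At 40 weeks the median was 7.05% in p25OE and 15.9% in WT. In the stricter gate the medians were 13.4% in p25OE and 20.7% in WT at 14 weeks, and 8.47% in p25OE and 23.3% in WT at 40 weeks. The p25OE cells also reached further down: at 40 weeks the 10th percentile of the stricter gate lay at 2.2% in p25OE and 10.1% in WT, while the 90th lay at 29.5% in p25OE and 36.7% in WT. Under 5% Pomc were 31% of these p25OE cells and 3.33% of the WT cells. Spearman's rho between a cell's UMIs and its Pomc share in the stricter gate was 0.03 in p25OE and -0.29 in WT at 14 weeks, and 0.34 in p25OE and -0.25 in WT at 40 weeks, over cells of 1 library.

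**Figure D1:**
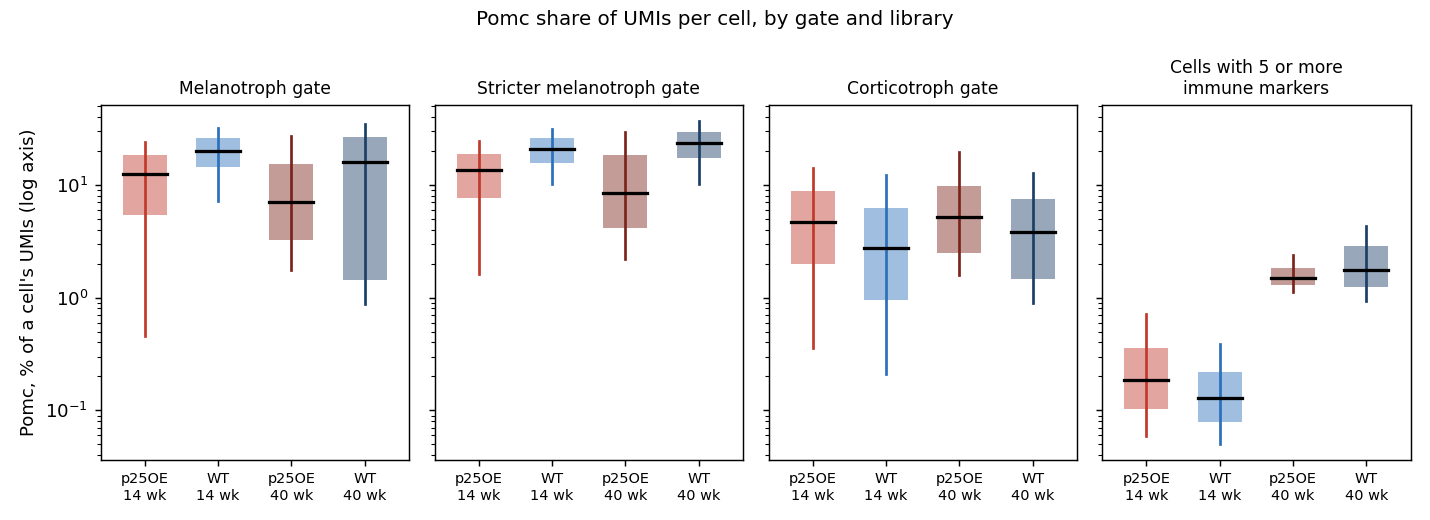
Pomc as a percentage of a cell's UMIs (log axis) in the 4 libraries, in 4 sets of cells. Black lines are medians, boxes the quartiles and vertical lines the 10th to 90th percentiles over cells. In the stricter melanotroph gate the p25OE medians of 13.4% and 8.47% lie below the WT medians of 20.7% and 23.3%, and the WT box of the melanotroph gate at 40 weeks reaches down to the level of immune-marked cells.

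Summed over melanotroph-gated cells, levels are given as scaled CPM, which is CPM (UMIs of a gene per 1000000 UMIs) after the libraries were brought to the same median gene. Pomc stood at 99647 scaled CPM in p25OE and 168952 in WT at 14 weeks, a log2 ratio of -0.76 (-0.76 to -0.76), or 1.7-fold lower. At 40 weeks it stood at 129594 in p25OE and 177671 in WT, a log2 ratio of -0.46 (-0.46 to -0.45), which is within 1.5-fold. The stricter gate gave 145899 scaled CPM in p25OE and 279734 in WT at 40 weeks, a log2 ratio of -0.94 (-0.94 to -0.94), or 1.92-fold lower. In plain CPM the ratios of the wider gate were -0.56 at 14 weeks and 0.01 at 40 weeks, where plain CPM moves the median gene by 0.19 and 0.45. Over the whole gland the direction was the other way at 40 weeks: Pomc over all kept cells was 2.36-fold higher in p25OE (111957 against 47388 scaled CPM in WT), and 1.17-fold at 14 weeks (40914 against 34897). The 83.3% of p25OE cells in the melanotroph gate at 40 weeks stand beside that value.

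Counted at 1.5-fold, 4 of the 7 genes were lower in p25OE melanotroph-gated cells and 0 higher at 14 weeks, where 9.69% of 12966 genes with at least 20 UMIs were lower and 11.6% higher. The median log2 ratio of the 7 was -0.76, and that of all genes -0.01. At 40 weeks 4 were lower and 1 higher, where 16.3% of 11578 genes were lower and 13.5% higher, and the medians were -0.91 for the 7 and -0.02 for all genes. The 4 lower at 40 weeks became 2 in plain CPM and 1 with either immune level subtracted, and the 1 higher became 0 in the stricter gate and 2 with the immune-gated level subtracted. In the stricter gate 4 were lower and 0 higher at 14 weeks (background 9.47% lower and 11.8% higher), and 5 were lower and 0 higher at 40 weeks (background 14.5% lower and 12% higher). In plain CPM of that gate Pomc at 14 weeks (-0.53) and Pcsk1 at 40 weeks (-0.44) came within 1.5-fold, and the other lower genes stayed lower. Immune levels were not subtracted in the stricter gate, so its counts were not put to that check. Pomc, Pcsk1, Pcsk1n and Pam were the 4 lower genes at 14 weeks in both gates. At 40 weeks the 4 lower genes of the wider gate were Pcsk1, Pcsk1n, Scg5 and Pam, and Pomc joined them in the stricter gate.

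**Figure D2:**
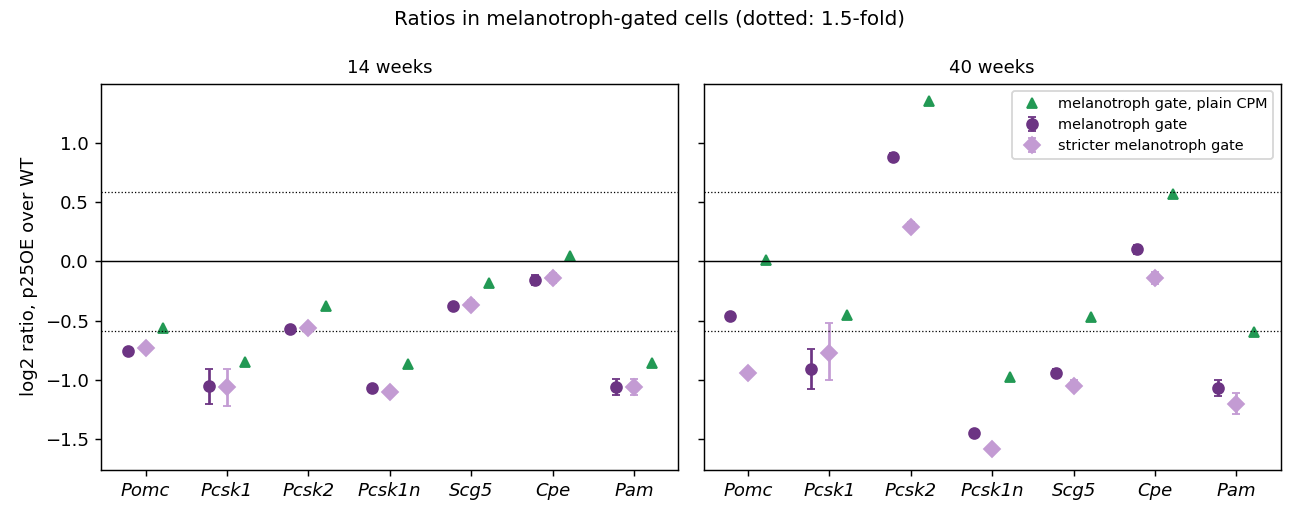
Log2 ratio of p25OE over WT for each gene in melanotroph-gated cells at 14 weeks (left) and 40 weeks (right), for the gate, the stricter gate and plain CPM in the gate; bars are 95% counting intervals, and dotted lines mark 1.5-fold. Pcsk1, Pcsk1n and Pam lie below the lower line in both gates at both ages, and Pcsk2 at 40 weeks comes down from 0.88 to 0.29 in the stricter gate.

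The 2 convertases differed from each other. Pcsk1 (chromosome 13, 75089826 to 75134861) was sparse in melanotroph-gated cells: 27.3 scaled CPM in p25OE and 56.8 in WT at 14 weeks, and 31.2 in p25OE and 58.9 in WT at 40 weeks. Its log2 ratio was -1.05 (-1.20 to -0.91) at 14 weeks and -0.91 (-1.08 to -0.74) at 40 weeks, and -1.06 and -0.77 in the stricter gate. Kept cells outside both gates had -0.64 at 14 weeks and -1.47 at 40 weeks, so the lower Pcsk1 was not particular to the melanotroph gate. After each cell was thinned to 1000 UMIs, 2.55% of p25OE and 4.45% of WT gated cells held Pcsk1 at 14 weeks, and 2.44% of p25OE and 4.43% of WT cells at 40 weeks, with 0 to 46 shallower cells left out per library. Before thinning the shares were 25.3% in p25OE and 60.5% in WT at 14 weeks, and 21% in p25OE and 27.4% in WT at 40 weeks. Immune-marked cells held it in 0.931% of p25OE and 0.14% of WT cells at 14 weeks, and in 0 of 119 p25OE cells, which allows up to 2.52%, and 1.77% of WT cells at 40 weeks. Their Pcsk1 level at 40 weeks was 2.73 CPM in p25OE (1 UMI) and 23.3 CPM in WT, beside 32 CPM in p25OE and 43.6 CPM in WT melanotroph-gated cells. With the level of immune-marked cells subtracted in each library, the 40-week log2 ratio of Pcsk1 was 0.06, against -0.91 without the subtraction.

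Pcsk2 (chromosome 2, 143546156 to 143816285) had opposite signs at the 2 ages. It stood at 1026 scaled CPM in p25OE and 1527 in WT at 14 weeks, a log2 ratio of -0.57 (-0.60 to -0.55), just inside 1.5-fold. At 40 weeks it stood at 2551 scaled CPM in p25OE and 1386 in WT, a log2 ratio of 0.88 (0.85 to 0.91). The stricter gate brought the 40-week ratio to 0.29 (0.26 to 0.33), with 2874 scaled CPM in p25OE and 2343 in WT. After thinning, 87.9% of p25OE and 81.3% of WT cells of that gate held Pcsk2 at 40 weeks, and 68.3% of p25OE and 80% of WT cells at 14 weeks. Of the kept cells with Pax7 or Oacyl, 20% in p25OE and 21.4% in WT lacked Pcsk2 at 14 weeks, and 2.22% in p25OE and 37.4% in WT at 40 weeks. Those WT cells at 40 weeks had a median Pomc share of 1.28%, below the 1.75% of immune-marked cells. Immune-marked cells showed Pcsk2 at 24.2 CPM in p25OE and 8.57 in WT at 14 weeks, and 279 CPM in p25OE and 80.8 in WT at 40 weeks.

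Pcsk1n (chromosome X, 7919822 to 7924410) and Scg5 (chromosome 2, 113776362 to 113829121), the partners of the convertases, were both lower in p25OE, Pcsk1n by more. Pcsk1n stood at 1195 scaled CPM in p25OE and 2506 in WT at 14 weeks (log2 ratio -1.07, -1.09 to -1.05), and at 1567 in p25OE and 4278 in WT at 40 weeks (-1.45, -1.47 to -1.43). It was thus 2.1-fold and 2.73-fold lower, and 3-fold lower in the stricter gate at 40 weeks. Thinned cells of the gate held it in 69.3% of p25OE and 88.9% of WT cells at 14 weeks, and in 77.6% of p25OE and 91.6% of WT cells at 40 weeks, and before thinning in 97.8% to 99.2% of cells over the 4 libraries. Scg5 stood at 713 scaled CPM in p25OE and 928 in WT at 14 weeks (-0.38, -0.41 to -0.35), within 1.5-fold. At 40 weeks it stood at 896 in p25OE and 1721 in WT (-0.94, -0.97 to -0.91), or 1.92-fold lower. Both genes were also read in immune-marked cells at 40 weeks, Pcsk1n at 467 CPM in p25OE and 1619 CPM in WT, and Scg5 at 199.5 CPM in p25OE and 697 CPM in WT. With those levels subtracted the 40-week log2 ratio was -0.15 for Scg5 and -0.91 for Pcsk1n. Subtracting the level of the wider set of immune cells, with at least 2 markers, turned Scg5 to 0.37. Over the 12 alternatives run, the 40-week ratio of Pcsk1n ranged from -1.62 to -0.76.

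Cpe and Pam, which finish the peptides, parted from each other. Cpe (chromosome 8, 64592542 to 64693054) stood at 482 scaled CPM in p25OE and 538 in WT at 14 weeks (-0.16, -0.20 to -0.12), and at 1018 in p25OE and 947 in WT at 40 weeks (0.10, 0.06 to 0.14). It was within 1.5-fold at both ages in both gates. Its sign changed in plain CPM at 14 weeks (0.04) and in the stricter gate at 40 weeks (-0.14). Pam (chromosome 1, 97795114 to 98095646) stood at 119 scaled CPM in p25OE and 248 in WT at 14 weeks (-1.06, -1.13 to -0.99), and at 160.1 in p25OE and 336 in WT at 40 weeks (-1.07, -1.14 to -1.0). The stricter gate gave -1.06 and -1.20. Subtracting the level of immune-marked cells, 19.1 CPM in p25OE and 110.2 CPM in WT, took the 40-week log2 ratio of Pam to -0.41.

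**Figure D3:**
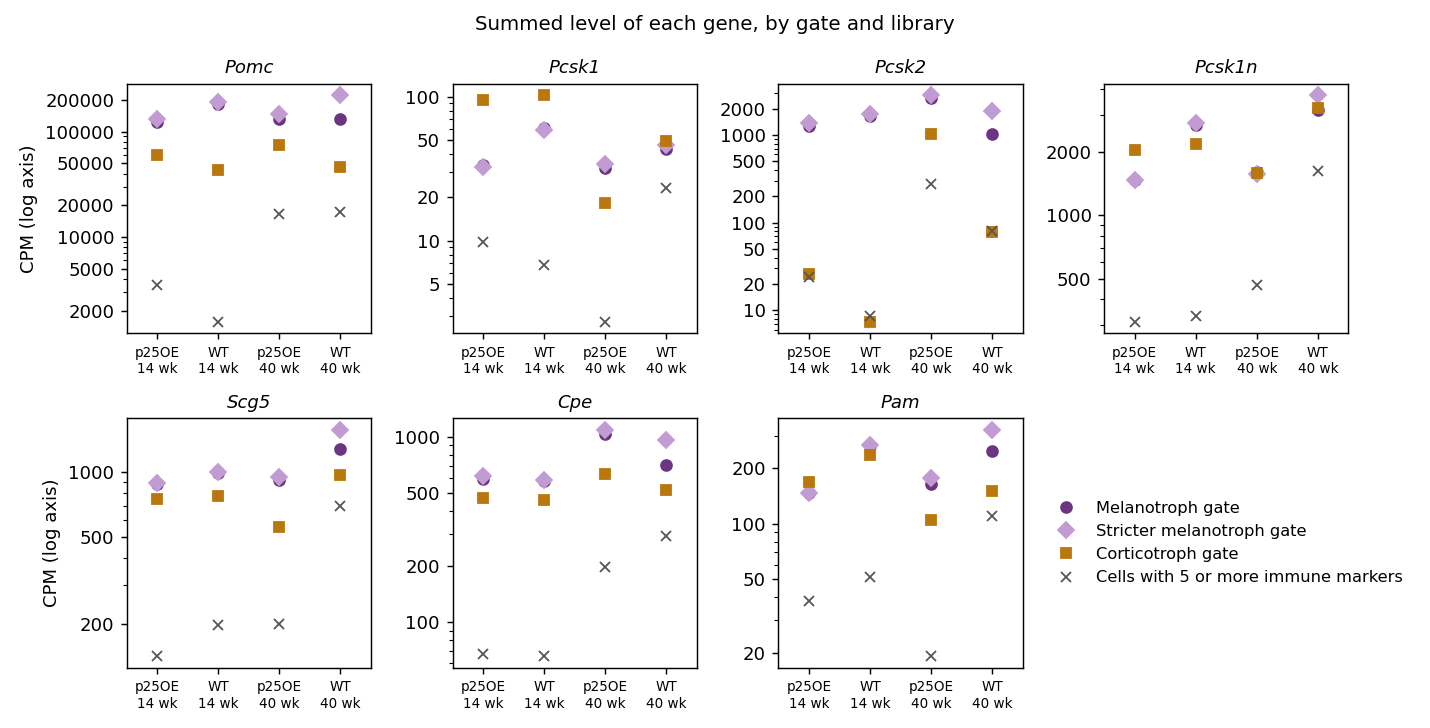
Plain CPM (log axis, own scale per gene) of the 7 genes summed over the cells of each gate, in the 4 libraries. Pcsk2 in the corticotroph gate lies on the level of immune-marked cells except in p25OE at 40 weeks, and immune-marked WT cells at 40 weeks sit close below the gated cells for Scg5, Pcsk1n and Pam.

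In corticotroph-gated cells at 14 weeks no member was at least 1.5-fold lower. Pomc stood there at 60832 scaled CPM in p25OE and 45001 in WT (log2 ratio 0.43, 0.43 to 0.44), within 1.5-fold, with a median share of 4.63% in p25OE and 2.73% in WT. With the gate read after thinning the log2 ratio turned to -0.14. The convertase of these cells, Pcsk1, stood at 96.2 scaled CPM in p25OE and 107 in WT (-0.15, -0.29 to -0.01). Pcsk1n (-0.11), Scg5 (-0.07), Cpe (0.01) and Pam (-0.50) were within 1.5-fold as well. Of the 7, 1 was higher and 0 lower, where 9.09% of 11844 genes were higher and 4.32% lower. For a set of 7 genes both counts lay near those shares. The higher gene was Pcsk2, at 26.4 scaled CPM in p25OE and 7.71 in WT (1.77, 1.39 to 2.17). In plain CPM it stood at 25.9 in p25OE and 7.41 in WT, beside 24.2 in p25OE and 8.57 in WT immune-marked cells, so it was at the background of free RNA in both libraries and is not read as expression. The melanotroph and corticotroph ratios come from the same 2 libraries, and their difference was not tested.

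At 40 weeks the Tbx19-or-Crhr1 gate of p25OE held 104 cells, and its ratios to the 603 WT cells are values of that mixture. Pomc stood at 62918 scaled CPM in p25OE and 52164 in WT (0.27, 0.26 to 0.29), and Pcsk2 at 866 in p25OE and 87.9 in WT (3.30, 3.10 to 3.5). Of the 7 genes 1 was higher and 4 lower, with Pcsk1 on 10 UMIs in p25OE; 18.8% of 3947 genes were higher and 13.7% lower. Its Pcsk2 level of 1037 CPM lay between the 279 CPM of immune-marked and the 2614 CPM of melanotroph-gated cells of that library.

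Within each library Pcsk2 separated the melanotroph from the corticotroph gate by more than the other 6 genes did. Plain CPM of Pcsk2 was 48.7-fold higher in melanotroph-gated than in corticotroph-gated cells of p25OE and 221-fold in WT at 14 weeks, and 2.52-fold in p25OE and 13.2-fold in WT at 40 weeks, a contrast the gate sets in part. Each 40-week p25OE value in this paragraph is against the Tbx19-or-Crhr1 gate of that library, and is no statement on corticotrophs. Pomc was 2.05-fold higher in the melanotroph gate in p25OE and 4.18-fold in WT at 14 weeks, and 1.76-fold in p25OE and 2.85-fold in WT at 40 weeks. Pcsk1 at 14 weeks was 2.81-fold higher in corticotroph-gated cells of p25OE and 1.69-fold in WT. Pcsk1n was 1.4-fold higher in corticotroph-gated cells of p25OE but 1.23-fold higher in melanotroph-gated cells of WT at 14 weeks. Scg5, Cpe and Pam lay within 1.5-fold between the gates in both libraries at that age. At 40 weeks Pcsk1n lay closest, 1.01-fold higher in melanotroph-gated cells of p25OE and 1.03-fold higher in corticotroph-gated cells of WT, while Pam was 1.56-fold higher in melanotroph-gated cells of p25OE and 1.65-fold in WT.

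Set against Pomc itself, which needs no scaling between libraries, the supply of enzyme transcripts per hormone transcript differed by gene. In the stricter melanotroph gate Pcsk2 had 10.3 UMIs per 1000 Pomc UMIs in p25OE and 9.08 in WT at 14 weeks, and 19.7 in p25OE and 8.38 in WT at 40 weeks. Cpe had 4.64 in p25OE and 3.08 in WT at 14 weeks, and 7.52 in p25OE and 4.32 in WT at 40 weeks. Both were thus higher per Pomc transcript in p25OE at both ages. The log2 ratios of scaled CPM in this gate were -0.56 and 0.29 for Pcsk2, -0.14 at both ages for Cpe, and -0.73 and -0.94 for Pomc. A higher value per Pomc transcript is thus not by itself a higher enzyme level, and the gate also requires Pcsk2. Per 1000 Pomc UMIs, Pcsk1n had 11.1 in p25OE and 14.3 in WT at 14 weeks, and 10.8 in p25OE and 16.8 in WT at 40 weeks. Pam had 1.11 in p25OE and 1.39 in WT at 14 weeks, and 1.21 in p25OE and 1.45 in WT at 40 weeks. Scg5 changed sides between the ages. Its ratio was 6.76 in p25OE and 5.25 in WT at 14 weeks, and 6.54 in p25OE and 7.04 in WT at 40 weeks. Pcsk1 had 0.245 in p25OE and 0.308 in WT at 14 weeks, and 0.233 (0.222 to 0.245) in p25OE and 0.207 (0.176 to 0.242) in WT at 40 weeks, where the intervals overlap. In the wider gate it was lower in p25OE at both ages, with 0.274 in p25OE and 0.336 in WT at 14 weeks, and 0.241 in p25OE and 0.331 in WT at 40 weeks.

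**Figure D4:**
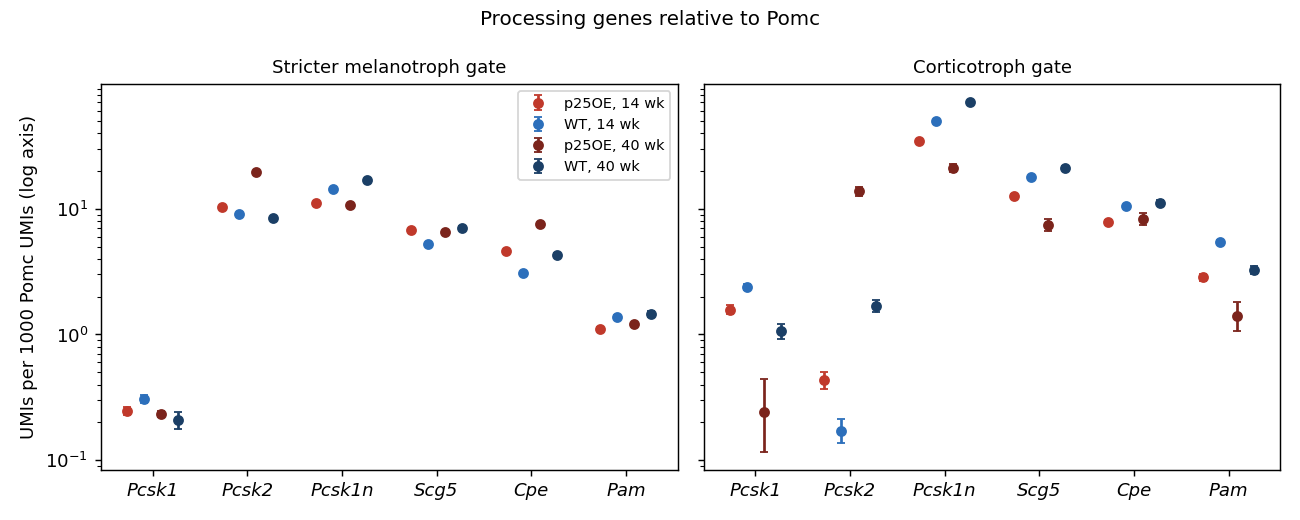
UMIs of each processing gene per 1000 Pomc UMIs (log axis) in the stricter melanotroph gate and the corticotroph gate, with 95% counting intervals, in the 4 libraries. Pcsk2 and Cpe are higher in p25OE than in WT at both ages in the melanotroph gate, and Pcsk1n and Pam are lower; the p25OE point for Pcsk2 at 40 weeks in the right panel belongs to the gate that goes against its name.

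Among the cells of the stricter melanotroph gate, Pcsk2 had a higher rank correlation with Pomc than the other genes did in 3 of 4 libraries, WT at 40 weeks being the exception, where Scg5 had 0.59 and Cpe 0.36. Its Spearman's rho with the Pomc share was 0.42 in p25OE and 0.56 in WT at 14 weeks, and 0.56 in p25OE and 0.32 in WT at 40 weeks; in the wider gate it reached 0.81 in WT at 40 weeks, where cells of other kinds are mixed in. Pcsk2 levels by Pomc quartile were taken with Pomc left out of the total, so they do not compare with CPM given elsewhere. Wider-gate p25OE cells above the upper quartile of Pomc share at 40 weeks had 4801 CPM of Pcsk2 at a median depth of 10692 UMIs. Those under the lower quartile had 1676 CPM at 6283 UMIs. Pcsk1 had rho of -0.05 in p25OE and -0.01 in WT melanotroph-gated cells at 14 weeks, and of 0.32 in p25OE and 0.26 in WT corticotroph-gated cells. These are descriptions over cells that share a library, its depth and its free RNA.

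Dividing melanotroph-gated cells carried less Pomc. A cell was counted as dividing when it held at least 2 of 10 mitosis genes after thinning, which gave 70 of 1959 cells in p25OE and 1 of 629 in WT at 14 weeks, and 321 of 6392 in p25OE and 3 of 902 in WT at 40 weeks. In p25OE at 14 weeks Pomc stood at 52468 CPM in dividing and 126261 CPM in the other cells (log2 ratio -1.27, -1.28 to -1.26). At 40 weeks it stood at 65782 CPM in dividing and 137110 CPM in the other cells (-1.06, -1.07 to -1.05). Pam was lower in dividing cells too (-1.06 at 14 weeks and -0.89 at 40 weeks), Scg5 by -0.55 and -0.51, and Pcsk2 by -0.40 and -0.69. Pcsk1n had -0.87 and -0.19, Cpe -0.09 and -0.41, and Pcsk1 -0.01 (-0.52 to 0.46) and -0.52 (-0.87 to -0.18). The dividing cells were deeper, with medians of 14598 against 9241 UMIs at 14 weeks and 9111 against 7309 at 40 weeks. Beside the 126261 CPM of the other p25OE cells at 14 weeks, the whole WT gate had 180964 CPM. At 40 weeks the order was the other way, with 137110 CPM in the other p25OE cells and 131628 CPM in the whole WT gate, which was mixed. The part of dividing cells in the ratios to WT was not tested.

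**Figure D5:**
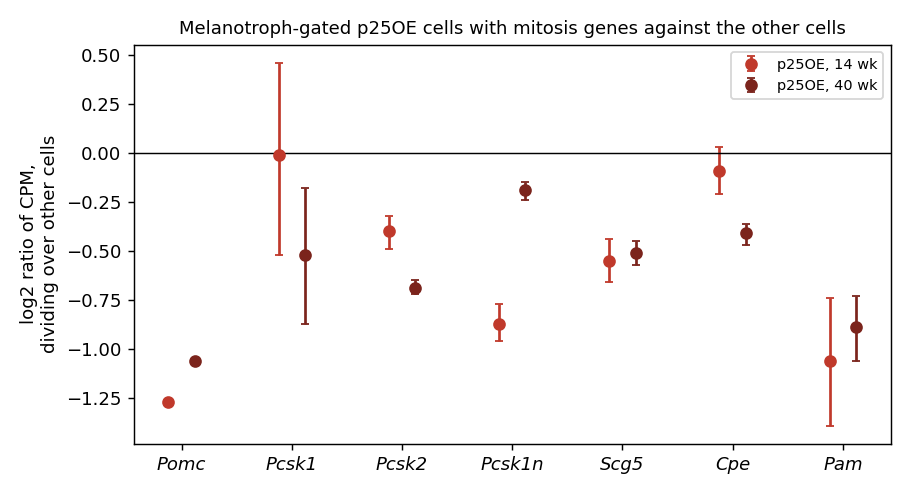
Log2 ratio of CPM in dividing over other melanotroph-gated p25OE cells for each gene at 14 and 40 weeks, with 95% counting intervals. Pomc and Pam lie near or below -0.89 at both ages, and Pcsk1 at 14 weeks has an interval across 0.

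Outside the 2 gates the processing genes were spread over other hormone cells of the gland. Pcsk1 in WT at 14 weeks had its highest level in gonadotroph-gated cells, 365 CPM (63 cells), above the 103 CPM of corticotroph-gated cells. In p25OE gonadotroph-gated cells had 102 CPM (78.9 to 129, 94 cells) and corticotroph-gated cells 94.3 CPM (86.9 to 102), and these intervals overlap. Scg5 at 14 weeks was highest in gonadotroph-gated cells, at 1481 CPM in p25OE and 1584 CPM in WT. Pcsk1n ranged at 14 weeks from 616 CPM in stem-cell-gated to 2754 CPM in gonadotroph-gated cells of p25OE, and from 782 to 2954 CPM in the same cells of WT. Pam lay between 84.2 and 169 CPM in the hormone and stem cell gates of p25OE and between 138 and 266 CPM in those of WT. It was lower in p25OE in each of the 6 gates set at 14 weeks for hormone and stem cells, by log2 ratios from -1.06 in melanotroph-gated to -0.50 in corticotroph-gated cells. Immune-marked cells gave -0.48 (-0.82 to -0.14) for Pam at that age, near the corticotroph value. The wider immune set, with at least 2 markers, gave -0.44 (-0.64 to -0.24). Pcsk1 at 14 weeks had -1.81 in gonadotroph-gated, -0.65 in somatotroph-gated and -0.51 in lactotroph-gated cells. It had -0.15 in corticotroph-gated and 0.08 in stem-cell-gated cells. Over the kept cells outside both gates at 40 weeks, Pcsk1n had -1.32, Scg5 -1.42 and Pam -1.43, while Cpe had -0.09, Pomc 0.80 and Pcsk2 3.11. The part of free RNA in these ratios was not tested.

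Of 18 other peptide-processing enzymes, 17 were in the tables and measured in melanotroph-gated cells at 14 weeks, with 3 higher, 3 lower and a median log2 ratio of -0.02, beside 11.6% higher and 9.69% lower over all genes. Qpct, which cyclizes N-terminal glutamine, stood at 15.5 scaled CPM in p25OE and 7.9 in WT (0.97), and Cpm, a membrane carboxypeptidase, at 2.32 in p25OE and 10.7 in WT (-2.21). At 40 weeks 2 of 15 were higher and 3 lower (median -0.23), beside 13.5% higher and 16.3% lower over all genes, and both counts lay near those shares. Pcsk6, a convertase of the constitutive pathway, stood at 1.11 scaled CPM in p25OE and 47.5 in WT (-5.42), and at 0.759 in p25OE and 17.1 in WT in the stricter gate (-4.49). Pcsk7, another such convertase, had 0.68 at 14 weeks and 1.36 at 40 weeks, and Ctsl, a lysosomal protease, had -1.12 at 40 weeks. Qpct was on the other side at 40 weeks, with -1.56, and with -0.85 in the stricter gate. There Pcsk7 had 1.05 and Ctsl -1.10 at 40 weeks. In this list and those that follow, values without a named gate are of the wider gate, whose WT cells at 40 weeks were mixed.

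Of 23 granins and granule genes measured at 14 weeks, 2 were higher and 8 lower (median -0.22), beside 11.6% higher and 9.69% lower over all genes. Of 22 at 40 weeks 4 were higher and 3 lower (median -0.03), near the 13.5% higher and 16.3% lower over all genes. In the stricter gate 4 of 23 were higher and 6 lower at 14 weeks, beside 11.8% higher and 9.47% lower over all genes. At 40 weeks 1 of 22 was higher and 3 were lower there, beside 12% higher and 14.5% lower over all genes, so the lower count lay near that share. Chga, the granin chromogranin A, stood at 2342 scaled CPM in p25OE and 1406 in WT at 14 weeks (0.74), and at 3707 in p25OE and 2105 in WT at 40 weeks (0.82), but had 0.23 in the stricter gate at 40 weeks. Vgf, a granin-like precursor, had 1.01 at 14 weeks. Lower were Ptprn, a granule membrane protein, with -1.16 at 14 weeks, and at 40 weeks Syt7, a calcium sensor of exocytosis, with -1.93, and Scg2, secretogranin II, with -1.08. Rab27b, a granule docking protein, had -1.01 at 14 weeks and 1.23 at 40 weeks.

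Of 22 genes that control Pomc transcription, 5 were lower and 1 higher at 14 weeks (median -0.32), beside 9.69% lower and 11.6% higher over all genes. At 40 weeks 11 of 21 were lower and 4 higher (median -0.61), beside 16.3% lower and 13.5% higher over all genes. The stricter gate at 40 weeks had 9 lower and 2 higher (median -0.38), beside 14.5% lower and 12% higher over all genes. Nr4a2 and Nr4a3, nuclear receptors of the Nur77 family that act on the Pomc promoter, had -1.11 and -1.72 at 14 weeks. Nr4a2 stood there at 218 scaled CPM in p25OE and 468 in WT. Isl1, a LIM homeobox factor, was higher at both ages, with 25.5 scaled CPM in p25OE and 10.5 in WT at 14 weeks (1.28), and 33.9 in p25OE and 10.8 in WT at 40 weeks (1.65). At 40 weeks Lifr, the receptor of leukaemia inhibitory factor, had -2.24, and the 2 genes with the lowest ratios were Neurod4 (-3.83) and Crhr1 (-3.77), the second of which is also a corticotroph gate gene. Pax7 belongs to the melanotroph gate, so its values of 0.29 and 0.90 were set in part by the rule. Tbx19 belongs to the corticotroph gate. Pax7, Tbx19 and Crhr1 were not left out of the counts and medians of this list, which the gates may thus have shaped in part.

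Of 17 genes of entry into the secretory pathway, 3 were lower and 0 higher at 14 weeks (median -0.24), beside 9.69% lower and 11.6% higher over all genes. At 40 weeks 4 were lower and 0 higher (median -0.38), beside 16.3% lower and 13.5% higher over all genes. In the stricter gate at 40 weeks 1 was lower and 0 higher, beside 14.5% lower and 12% higher. In a list of 17 genes these counts lay near those shares. Spcs1, a signal peptidase subunit, had -0.77 at 14 weeks, and Sec61b, of the translocation channel, -0.72 at 14 and -0.61 at 40 weeks. Hspa5, the chaperone BiP, had -0.11 at 14 weeks and -0.74 at 40 weeks.

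Over the 12 points of 3 gates and 4 libraries, the genes most like Pomc by Pearson's r of log2 CPM, among 4349 genes, were Mpc2 (0.966), Ndufb3 (0.958), Esm1 (0.955), Aloxe3 (0.947) and Chchd1 (0.937). Gulo (0.985) and Cryba2 (0.979) were most like Pcsk2, and 5330417C22Rik (0.966) and Sec23ip (0.934) most like Pcsk1. For Pcsk1n they were Tm2d3 (0.937) and Chchd7 (0.930), for Scg5 Ndufa4 (0.892) and Gstp1 (0.853), for Cpe Zcchc17 (0.967) and 1110008P14Rik (0.964), and for Pam Esyt2 (0.811) and Serinc1 (0.795). Among the 7 themselves Pomc was most like Cpe (0.88) and Pcsk2 (0.75) and had -0.00 with Pcsk1. The points share libraries and free RNA, and these values describe them only.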

How the data were processed

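Per the file headers and the labels, the deposited matrices hold UMI counts per gene and barcode, whole numbers with no normalization. Libraries were made with the 10x 3' kit after papain digestion, per the labels' protocols, and processed with Cell Ranger 3.0.2 on mm10, per the submitters' processing notes; the file headers give 3.0.1. The authors' barcode filter is not given in the sources used here.

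Computed here (Python 3.11.15, numpy 2.4.6, scipy 1.17.1): counts were summed per gate and library. Size factors were medians of ratios over genes with at least 20 UMIs in each library. Ratios carry exact intervals from 2 Poisson counts, and were tested on simulated data. Shares of cells with a UMI were read after thinning to 1000 UMIs. Scrublet (scanpy 1.11.5) marked 4, 3, 1 and 2 cells, so doublets remain. Likeness used log2(CPM + 1), for genes with at least 50 CPM at a point. Coordinates are from GENCODE on GRCm38, whose gene IDs match the tables, and 6 of 7 genes matched a RefSeq promoter.

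Named besides the 7 were gate genes, the most like genes, and up to 3 highest and 3 lowest of each list per age. Genes and lists were chosen with earlier results of these data known.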

Additional observations from a re-analysis of the deposited data

Results flagged for a closer look

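Pcsk2 had opposite signs at the 2 ages in melanotroph-gated cells, with a log2 ratio of p25OE over WT of -0.57 at 14 weeks and 0.88 at 40 weeks. The difference between the ages was not tested. In the stricter gate the values were -0.56 and 0.29.

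Barcodes left out for few genes or many mitochondrial UMIs also carried Pomc, and more of it in p25OE. Pomc took 2.33% of their UMIs in p25OE and 1.56% in WT at 14 weeks, and 5.76% in p25OE and 4.88% in WT at 40 weeks. Pcsk2 stood in them at 127 CPM in p25OE and 70.2 CPM in WT at 14 weeks, and at 1097 CPM in p25OE and 222 CPM in WT at 40 weeks.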

How the results depend on the processing

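The cause of each change was not tested. No paired analysis was possible because each group was 1 library and the labels give no replicate numbers, and for the same reason none was left out. Free Pomc was higher at 40 weeks in both genotypes, doublets remain, and whether libraries shared a run is not given. The gate with 3 UMIs and the subtraction of the level of cells with 5 immune markers were chosen after seeing the data. Values are log2 ratios of p25OE over WT unless said otherwise.

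Pomc in melanotroph-gated cells was -0.76 at 14 weeks and -0.46 at 40 weeks. In plain CPM it was -0.56 and 0.01, with Pomc, Gh and Prl out of the total -0.69 and -0.35, and as a mean of the cells' shares -0.87 and -1.03. The gate without Pcsk2 gave -0.71 and 0.00, that with both Pax7 and Oacyl -0.70 and -0.85, that with 3 UMIs -0.73 and -0.94, and gates read after thinning -0.57 and -0.82. With at least 1000 genes and at most 10% mitochondrial UMIs it was -0.77 and -0.37, and without the highest doublet scores -0.77 and -0.52. All deposited barcodes gave -0.46 at 40 weeks. Subtracting the immune-gated level gave -0.81 and -0.54, and the level of cells with 5 immune markers -0.79 and -0.44. At 40 weeks these 2 subtractions reversed Pcsk1 to 0.16 and 0.06, and the first reversed Scg5 to 0.37.

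Members at least 1.5-fold lower in that gate at 40 weeks numbered 4, against 2 in plain CPM and 1 after either subtraction. The 1 higher became 0 with the mean of shares, both Pax7 and Oacyl, 3 UMIs or thinning, and 2 with the immune-gated level subtracted.

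Pomc in corticotroph-gated cells was 0.43 at 14 weeks. At 40 weeks, where the p25OE side is the Tbx19-or-Crhr1 gate, Pomc was 0.27. It was 0.46 and 0.71 in plain CPM, 0.40 and 0.45 with the 3 hormones out of the total, 0.27 and 0.09 as a mean of shares, -0.14 and 0.86 after thinning, 0.45 and 0.13 without the highest doublet scores, and 0.38 and 0.39, or 0.40 and 0.59 with 5 markers, after subtraction. At 14 weeks the gate without Pcsk2 gave 0.39, Crhr1 alone 0.29 and all barcodes 0.43. At 40 weeks at least 1000 genes gave 0.25, while the gates without Pcsk2 and by Crhr1 held under 50 p25OE cells and gave no value. Reversed were Pcsk2 at 14 weeks, from 1.77 to -0.39 after thinning, and Pam at 40 weeks, to 0.64 with the level of 5-marker cells subtracted.

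The melanotroph gate took 25.6% of p25OE and 9.58% of WT cells at 14 weeks, and 83.3% of p25OE and 11.4% of WT cells at 40 weeks. Without Pcsk2 it took 32% of p25OE and 12.2% of WT, then 85.2% of p25OE and 18.2% of WT; after thinning 11.6% of p25OE and 4.69% of WT, then 39.3% of p25OE and 3.24% of WT. The stricter cell filter gave 30% of p25OE and 11.1% of WT, then 89.4% of p25OE and 13.9% of WT, and all barcodes 14% of p25OE and 7.34% of WT, then 80% of p25OE and 7.95% of WT. Over both ages, 158 of 168 alternatives kept a gene's sign in melanotroph-gated cells and 144 its side of 1.5-fold. In corticotroph-gated cells 117 and 125 of 134 did, and in the rest 95 and 89 of 98. In melanotroph-gated cells 9 of 14 ratios, 1 per gene and age, kept their sign in all alternatives. The exceptions were Cpe at both ages, and Pomc, Pcsk1 and Scg5 at 40 weeks.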
